A study of Mus musculus with 39 samples.

Results

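H3K27me3 was compared between DP and Pdgfra+ cells of naive extra-embryonic endoderm (nEnd) through the 6 CUT&Tag peak lists of this mark in these populations, of 36 peak lists in all. The members were every H3K27me3 list of the 2 populations, 3 libraries of each, and no list of the Oct4+ population was used. The study asked how chromatin differs between nEnd subpopulations, which were cultured from a mouse OCT4-mCherry reporter line, left untreated and sorted by FACS on OCT4-mCherry and on PDGFRA stained with APC. DP cells carried both proteins and Pdgfra+ cells carried PDGFRA without OCT4-mCherry. Both came from this single line, and the labels give neither the cultures behind the replicates nor the sequencing depth of a library, so p-values measure only the spread between these libraries, which may be technical.

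nEnd is a culture model of the primitive endoderm, the tissue of the blastocyst that lines the epiblast and later forms the yolk sac. H3K27me3 is written by Polycomb repressive complex 2, whose catalytic subunit is EZH2 or EZH1, and is read by the CBX subunits of Polycomb repressive complex 1. In embryonic and extra-embryonic cells it is known for covering CpG-rich promoters of silent developmental regulators such as the Hox genes, often as domains many nucleosomes wide.

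A gene was counted in a list when a listed peak overlapped its promoter, the stretch from 1 kb upstream to 100 bp downstream of any annotated start site, by at least 1 base. Of 21938 protein-coding genes (GRCm38, GENCODE vM21), 4867 had a promoter peak in at least 1 of the 6 lists. A gene was called for a population when all 3 of its lists, and none of the 3 of the other, held a promoter peak. Because the lists differ in length, each comparison was made with all peaks and again with equal lists, in which every list was reduced to its peaks of highest total signal until it was as long as the shortest, that of Pdgfra+ replicate 1. The strength of a peak is given as its percentile, the percent of the peaks of the same list with an equal or lower total signal.

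The labels were checked on H3K27ac, a mark of active promoters, in the lists of the same populations. Of 12 endoderm identity genes, which include Gata6, Gata4, Sox17 and Pdgfra, 7 to 12 had an H3K27ac promoter peak in each DP list and 11 in each Pdgfra+ list. Of 12 pluripotent identity genes, which include Pou5f1, Nanog and Sox2, the counts were 2 to 5 in DP and 1 to 3 in Pdgfra+. Of 10 trophectoderm identity genes, which include Cdx2, Gata3 and Eomes, the counts were 2 to 4 and 3 to 4. In each set the counts of the populations overlapped, so this check cannot tell DP from Pdgfra+ cells. H3K27me3 was listed at the promoter of none of the 12 endoderm genes in any of the 6 lists. Among 25 housekeeping genes it was listed once, in DP replicate 2.

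The Pdgfra+ libraries stood apart from each other before any comparison. DP replicates 1, 2 and 3 listed 3798, 8672 and 6418 peaks, and Pdgfra+ replicates 2 and 3 listed 2841 and 6151. Pdgfra+ replicate 1 had the shortest list, which covered 2.80 Mb of the genome against 11.4 and 66.8 Mb in replicates 2 and 3 and 40.1 to 73.1 Mb in DP. Promoter peaks were found at 2956, 4322 and 3431 genes in DP and at 596, 1376 and 3311 genes in Pdgfra+. The difference of 1809 genes between the means was within the spread of the libraries (exact two-sided permutation p = 0.2, adjusted p = 0.5 over 5 tests), and 3 libraries against 3 cannot give a p below 0.1. Pdgfra+ replicate 3 lay inside the range of the DP libraries, whereas replicates 1 and 2 lay below it. Neither the sort purity nor the depth of these libraries was tested. With peaks over the promoter or gene body the counts were 3304, 4990 and 3941 genes in DP against 834, 1782 and 3848 in Pdgfra+ (exact permutation p = 0.2, adjusted p = 0.5).

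**Figure D1:**
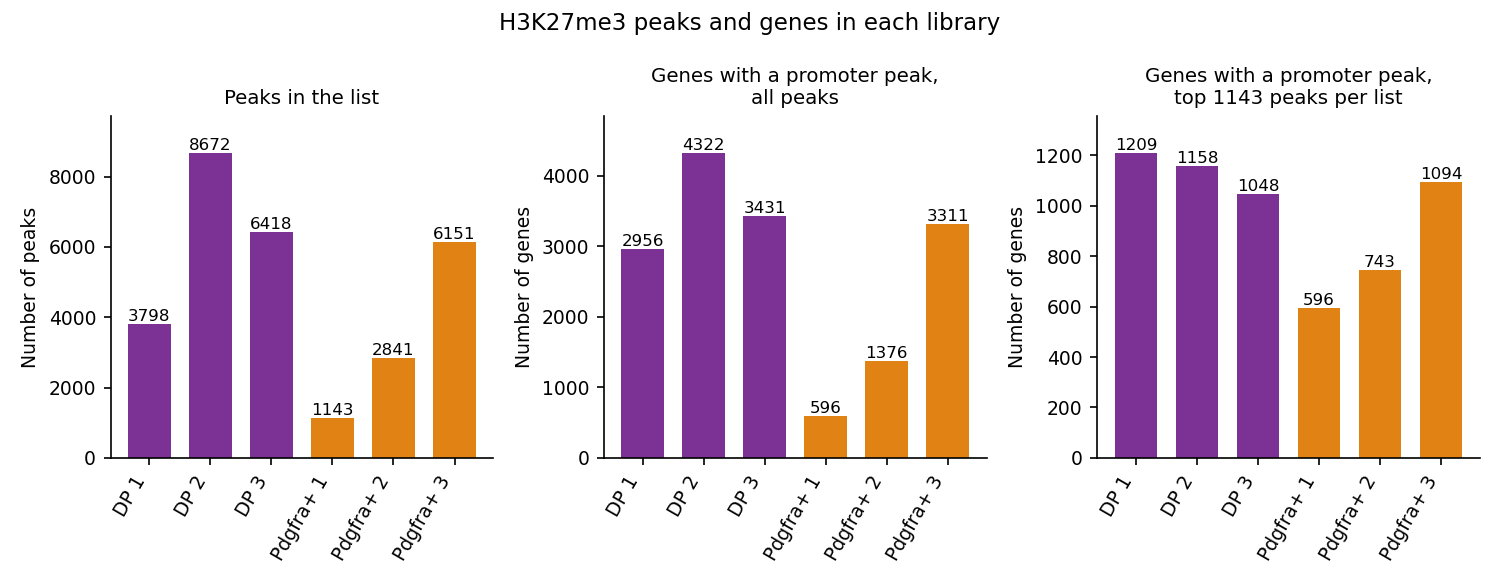
Bars give, for each DP (purple) and Pdgfra+ (orange) library, the number of H3K27me3 peaks listed (left), the number of protein-coding genes with a promoter peak from all peaks (middle) and from the equal lists (right). Pdgfra+ 3, with 3311 genes, lies among the DP libraries, and Pdgfra+ 1, with 596, is the lowest.

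With equal numbers of peaks the gap narrowed. The lists were then equal in number but not in width, and covered 25.6, 23.6 and 14.9 Mb in DP and 2.80, 6.28 and 26.4 Mb in Pdgfra+. A wider peak can overlap more promoters, and neither counts nor calls were adjusted for width. The peaks of the equal lists covered promoters of 1209, 1158 and 1048 genes in DP and of 596, 743 and 1094 genes in Pdgfra+ (p = 0.2 by the exact permutation test, 0.333 after adjustment). The share of these peaks that lay at promoters was 85.0, 82.2 and 81.9% in DP and 53.2, 66.4 and 80.8% in Pdgfra+. This was the only 1 of the 5 measures in which the populations did not overlap (exact permutation p = 0.1, the smallest possible, adjusted p = 0.333). With all peaks the shares did overlap, at 71.5, 49.95 and 54.3% against 53.2, 51.9 and 54.1% (exact permutation p = 0.7, adjusted p = 0.7). Without DP replicate 1 the difference of that share, 5.53 points, turned to -0.911 points.

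Promoter peaks were as wide in Pdgfra+ replicate 3 as in DP. Their median widths were 11323, 7226 and 5454 bp in DP and 2330, 3681 and 9043 bp in Pdgfra+, a difference within the spread (p = 0.4 by the exact permutation test, 0.667 after adjustment). The CpG ratio of the promoters of these genes, taken at the annotated gene start and not over the peaks, did not differ beyond the spread. The median observed over expected CpG ratio was 0.461, 0.433 and 0.450 in DP and 0.508, 0.463 and 0.412 in Pdgfra+, against 0.392 over all genes (exact permutation p = 0.7, adjusted p = 0.7).

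Most genes marked in Pdgfra+ cells were marked in DP cells too. Of the genes in Pdgfra+ replicates 1, 2 and 3, 98.8, 97.2 and 90.0% had a promoter peak in at least 1 DP list. Of 465 genes held by all 3 Pdgfra+ lists, 455 were also held by all 3 DP lists, which is 97.8% of the Pdgfra+ set and 17.4% of the 2616 genes held by all 3 DP lists. With the equal lists this asymmetry was not seen among genes in at least 1 list, while among genes in all 3 lists the shares still differed. The shares were then 66.6, 79.9 and 80.9% for Pdgfra+ replicates 1, 2 and 3, and the 1025 genes found in at least 1 list of each population were 68.0% of the DP genes and 69.2% of the Pdgfra+ genes. Genes in all 6 equal lists numbered 214, which is 80.5% of the 266 in all 3 Pdgfra+ lists and 27.3% of the 783 in all 3 DP lists. Here, as with all peaks, both shares count the same genes, so they differ only through the sizes of the 2 sets. With all peaks, another 956 genes were in 3 DP lists and exactly 1 Pdgfra+ list and 873 in 3 DP lists and exactly 2. The gene sets of 2 libraries overlapped with a Jaccard index (shared genes over genes in either) of 0.642 to 0.747 within DP and of 0.177 to 0.411 within Pdgfra+. Between the populations it ran from 0.135 to 0.635, and Pdgfra+ replicate 3 reached 0.618 to 0.635 with the DP libraries.

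Genes called for a population were few. With all peaks, 332 genes (1.51% of those tested) were called in DP and 3 (0.0137%) in Pdgfra+. Leaving out a library loosens the rule for a call, so a count can then stay or rise but cannot fall. Such counts, here and below, are out of the same 21938 genes. Without DP replicate 1 the DP count was 725, and without Pdgfra+ replicate 3 it was 1280. The Pdgfra+ count became 35 without Pdgfra+ replicate 1, 5 without Pdgfra+ replicate 2 and 5 without DP replicate 2. Genes in all 6 lists numbered 455, and 1225 without Pdgfra+ replicate 1. Counting the gene body as well gave 357 (1.63%) and 4 (0.0182%).

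The equal lists gave 115 genes (0.524%) called in DP and 15 (0.0684%) in Pdgfra+. The DP count was 190 without DP replicate 3 and 282 without Pdgfra+ replicate 3, and the Pdgfra+ count was 43, 23 and 49 without Pdgfra+ replicates 1, 2 and 3. Genes in all 6 lists numbered 214, and 408 without Pdgfra+ replicate 1. With the gene body the counts were 135 (0.615%) and 24 (0.109%). The calls of the 2 comparisons differed. Of the 21938 genes tested, only 25 were called in DP in both, which is 7.53% of the 332 and 21.7% of the 115. In Pdgfra+, 1 gene was called in both.

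**Figure D2:**
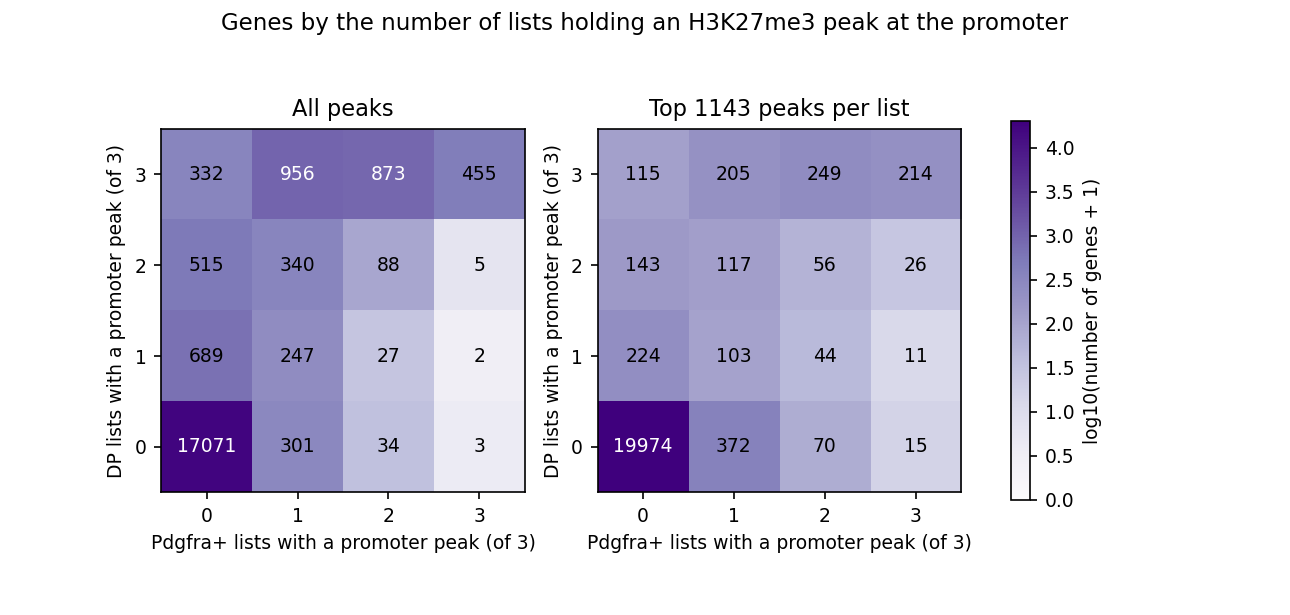
Each cell gives the number of genes with an H3K27me3 promoter peak in that many DP lists (vertical axis) and Pdgfra+ lists (horizontal axis), with all peaks (left) and the equal lists (right), shaded on a log10 scale. The upper left corners hold the 332 and 115 genes called in DP and the lower right corners the 3 and 15 called in Pdgfra+.

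Most of the 115 DP genes of the second comparison were not free of the mark in Pdgfra+ cells. With all peaks, 90 of them had a promoter peak in Pdgfra+ replicate 3, 23 in replicate 2 and none in replicate 1. Likewise 12, 14 and 12 of the 15 Pdgfra+ genes had a promoter peak in DP replicates 1, 2 and 3. Most of these calls are thus differences of rank within a list.

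The 25 genes called in DP in both comparisons were examined for neighbouring peaks. In 15 of them a Pdgfra+ peak touched the DP peak that covers the promoter, without reaching the promoter. All 15 were touched by a peak of Pdgfra+ replicate 3, 9 of them by one of replicate 2 and 4 by one of replicate 1, so that 9 remained without replicate 3. In the other 10 no Pdgfra+ peak touched it, and these included Pkd1l2, Syt12, Aqp1, Epas1, Fchsd2, Dusp8, Kit, Zfp703 and Arid3a, a set picked after their values were seen. Over all 332 genes called in DP with all peaks, a Pdgfra+ peak touched the DP peak in 70 and in 262 it did not. All 70 were touched by replicate 3, and 27 by replicate 1 or 2. In the other direction, a DP peak touched the Pdgfra+ peak in 1 of the 3 genes called in Pdgfra+ with all peaks. Among the genes called with the equal lists, peaks of the full lists of the other population touched those of 105 of the 115 DP calls. They touched those of all 15 Pdgfra+ calls.

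Kit, the receptor tyrosine kinase for stem cell factor, was 1 of the 10 (chr5:75574916-75656722, plus strand). Its promoter peak stood at percentile 82.7, 93.0 and 84.2 in DP replicates 1, 2 and 3 and was 18317, 17678 and 9258 bp wide. The nearest peak in Pdgfra+ replicates 1, 2 and 3 lay 5444, 496 and 399 kb from the gene's start. An H3K27ac promoter peak was also listed for Kit in DP replicates 1 and 3 and in no Pdgfra+ list. Each mark was counted over any start site of a gene. Peaks of different marks, here and below, need not lie at the same start site, and their overlap was not tested.

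Epas1, which encodes the hypoxia-inducible factor HIF-2 alpha, stood at percentile 94.4, 96.3 and 83.6 in DP, and its nearest Pdgfra+ peaks lay 1064, 1044 and 53.0 kb away. Aqp1, a water channel, stood at 89.9, 96.2 and 96.2, with Pdgfra+ peaks 55.6, 65.4 and 13.0 kb away. Arid3a, an ARID-domain regulator, stood at 72.4, 92.0 and 87.4, with Pdgfra+ peaks 288, 277 and 37.4 kb away. Of those named, Epas1, Dusp8, Zfp703 and Arid3a had H3K27ac promoter peaks in at least 2 lists of each population, and Pkd1l2 and Fchsd2 had none in any of the 6. Dusp8 encodes a phosphatase that acts on MAP kinases.

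The 15 genes whose DP peak a Pdgfra+ peak touched included the strongest of the 25. Chpf2, a chondroitin polymerizing factor, stood at percentile 99.4 or above in each DP list under peaks 54675, 51679 and 22810 bp wide, with Pdgfra+ peaks 59.5, 11.7 and 7.17 kb from its start. Cbx8, which encodes a CBX subunit of Polycomb repressive complex 1, stood at 96.9, 99.3 and 99.7 under peaks 30708, 34382 and 31955 bp wide, and the nearest peaks of Pdgfra+ replicates 1, 2 and 3 lay 15.7, 13.5 and 3.49 kb from its start. Rbm28, Sox13, Zmiz1, Lyl1, Tmem119, Isoc2b, Slc45a3, Fam222a, Als2cl, Tldc2, Wnt11 and Sox14 were also among the 15.

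**Figure D3:**
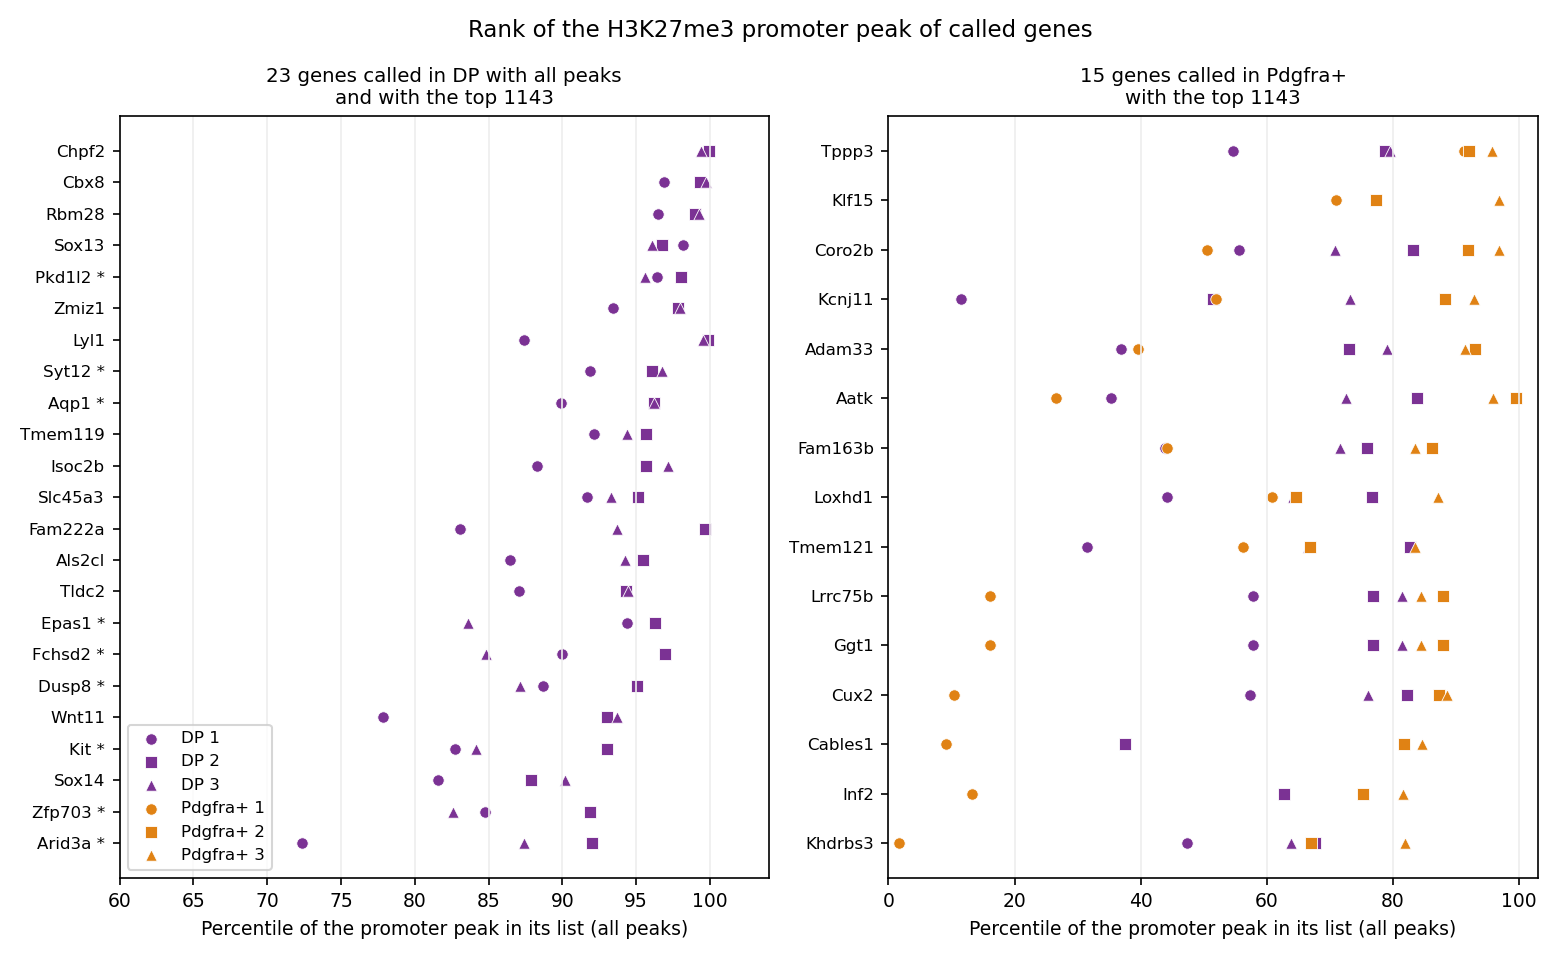
Points give the percentile (horizontal axis) of the promoter peak of a gene within each list that holds it, all peaks counted, for 23 of the 25 genes called in DP in both comparisons (left, axis from 60, an asterisk marks the 9 of them with no Pdgfra+ peak touching the DP peak) and for the 15 genes called in Pdgfra+ with the equal lists (right). The left panel holds DP points alone, whereas on the right 12 of 15 genes have a DP 1 point and 14 of 15 a DP 2 point.

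Klf15, a Krüppel-like transcription factor of metabolic genes (chr6:90462576-90475238, plus strand), was the 1 gene called in Pdgfra+ in both comparisons. Its promoter peak stood at percentile 71.0, 77.3 and 96.8 in Pdgfra+ replicates 1, 2 and 3 and was 2305, 3438 and 24977 bp wide, and no DP list held a peak over its promoter or body. In DP, H3K27ac was listed at a promoter of Klf15 in replicates 1 and 3. H3K4me1, a mark of enhancers and of the flanks of promoters, was listed at one in replicates 2 and 3. No Pdgfra+ list held either mark at a promoter of the gene. Klf15 and Kit were thus called in opposite populations for H3K27me3, while for both the H3K27ac peaks were in DP lists alone. They were not mirror images, since peaks of DP replicates 2 and 3 touched the Pdgfra+ peak at Klf15 without reaching its promoter. No Pdgfra+ peak touched the DP peak at Kit.

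Upstream sequence is shown for 3 of the 25 DP genes (Kit, Aqp1 and Cbx8), for Klf15 and for Gata2, which was marked in all 6 lists. Each is the 250 bases before the RefSeq start on GRCm38.p6, 5′ to 3′ on the strand of the gene, with every CG in capitals, the dinucleotide in which promoters marked by Polycomb are known to be rich. Of the 155 genes named by rule, 102 matched the RefSeq promoter table. DP peaks lay over the Kit, Aqp1 and Cbx8 windows in 3 of 3 lists and Pdgfra+ peaks in none, Pdgfra+ peaks alone lay over that of Klf15 in 3 of 3, and both lay over that of Gata2 in 3 of 3.
Kit, chr5:75574737-75574986, plus strand: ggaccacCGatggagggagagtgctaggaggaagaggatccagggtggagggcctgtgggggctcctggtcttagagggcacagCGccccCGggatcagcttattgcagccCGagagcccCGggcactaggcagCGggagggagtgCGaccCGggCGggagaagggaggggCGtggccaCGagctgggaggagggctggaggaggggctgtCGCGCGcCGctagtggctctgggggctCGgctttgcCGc
Aqp1, chr6:55336049-55336298, plus strand: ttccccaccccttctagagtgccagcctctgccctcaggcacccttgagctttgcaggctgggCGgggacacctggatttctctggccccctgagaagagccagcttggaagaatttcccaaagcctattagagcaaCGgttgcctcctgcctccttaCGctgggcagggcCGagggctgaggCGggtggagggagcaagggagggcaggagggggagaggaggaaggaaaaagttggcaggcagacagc
Cbx8, chr11:119040914-119041163, minus strand: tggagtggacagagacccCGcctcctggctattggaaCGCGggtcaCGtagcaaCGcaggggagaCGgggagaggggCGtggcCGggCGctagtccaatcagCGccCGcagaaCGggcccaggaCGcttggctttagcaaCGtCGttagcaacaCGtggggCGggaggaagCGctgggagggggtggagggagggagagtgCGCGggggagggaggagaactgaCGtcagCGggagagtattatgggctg
Klf15, chr6:90462326-90462575, plus strand: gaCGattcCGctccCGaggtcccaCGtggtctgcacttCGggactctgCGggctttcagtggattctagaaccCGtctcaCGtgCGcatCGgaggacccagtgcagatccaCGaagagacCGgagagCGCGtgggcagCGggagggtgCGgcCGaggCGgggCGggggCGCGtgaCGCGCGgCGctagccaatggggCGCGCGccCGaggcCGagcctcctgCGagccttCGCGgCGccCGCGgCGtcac
Gata2, chr6:88193641-88193890, plus strand: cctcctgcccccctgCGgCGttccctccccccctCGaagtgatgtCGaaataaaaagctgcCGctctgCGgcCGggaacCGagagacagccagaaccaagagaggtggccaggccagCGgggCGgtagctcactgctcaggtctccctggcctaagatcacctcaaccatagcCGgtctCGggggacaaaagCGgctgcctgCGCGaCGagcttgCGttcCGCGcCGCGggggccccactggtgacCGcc
These windows held 17, 5, 22, 37 and 22 CG. Of 27025 promoters in the table, 23.6% had at least as many as Kit, 55.5% as Aqp1, 14.6% as Cbx8 and Gata2 and 2.12% as Klf15. The window with the fewest CG of the 5, that of Aqp1, was thus near the middle of all promoters, and the one with the most was marked in Pdgfra+ alone.

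The other 14 genes called in Pdgfra+ with the equal lists were Fam163b, Adam33, Cux2, Kcnj11, Tppp3, Coro2b, Lrrc75b, Ggt1, Aatk, Inf2, Tmem121, Khdrbs3, Cables1 and Loxhd1. Tppp3, which encodes a tubulin-binding protein, stood at percentile 91.3, 92.1 and 95.7 in Pdgfra+ and at 54.6, 78.7 and 79.5 in DP, without overlap. Aatk, a neuronal kinase, overlapped at 26.5, 99.6 and 95.9 against 35.3, 83.9 and 72.5. Lrrc75b and Ggt1 shared their peak and are not independent. With all peaks, Klf12, a Krüppel-like repressor, and Ccn4, a secreted WNT-induced protein, joined Klf15. Klf12 stood at 43.0, 58.8 and 50.1 and Ccn4 at 54.0, 54.7 and 19.997 in Pdgfra+, in the middle of their lists or below.

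Among the 455 genes held by all 6 lists, the percentile of the promoter peak could be compared. Every DP value exceeded every Pdgfra+ value in 53 genes (11.6%) and the reverse held in 7 (1.54%). Pitx1, a homeobox regulator of hindlimb identity, was among the 53, at 95.8, 98.3 and 98.9 in DP and at 55.8, 20.2 and 82.4 in Pdgfra+. Frmd4b, a scaffold protein, stood at 98.2, 99.2 and 97.2 against 5.77, 9.01 and 66.9. Gpnmb, a membrane glycoprotein, had the widest gap of the 7, at 30.7, 28.9 and 26.7 in DP and at 49.8, 66.2 and 68.2 in Pdgfra+. Itga8, an integrin subunit, was another of the 7, at 19.0, 43.5 and 37.6 against 61.9, 59.2 and 46.4. Percentiles depend on how many weak peaks a list holds, which differed between libraries as given above.

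The 10 strongest of the 455 by mean percentile were Pou3f1, Hmx1, Prrt4, Zfp467, Sspo, Vax2, Emx1, Il17rc, Sema5b and Psd2. Pou3f1, a POU factor of the early nervous system, stood at 99.26, 99.70 and 99.95 in DP and at 93.1, 97.3 and 99.2 in Pdgfra+. Gata2, a trophectoderm and blood regulator, stood at 99.2, 99.7 and 99.9 in DP and at 90.6, 99.0 and 98.1 in Pdgfra+. The width differed more than the rank, since the Gata2 peak was 25263, 25056 and 24875 bp wide in DP and 3051, 10070 and 23564 bp wide in Pdgfra+.

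Genes of 22 lists of regulators, pathways, markers and other classes were counted library by library, beside all protein-coding genes, of which 13.5, 19.7 and 15.6% had a promoter peak in DP replicates 1, 2 and 3 and 2.72, 6.27 and 15.1% in Pdgfra+. The neural, mesoderm, mesendoderm, pluripotency, trophectoderm, trophectoderm identity, Hox, WNT, TGF-beta, FGF, imprinted, adhesion and Eph lists exceeded these shares in every library. Housekeeping genes, the secreted, matrix and membrane genes of endoderm and the endoderm identity genes stayed below them in all 6. In each of the lists Pdgfra+ replicate 1 was the lowest Pdgfra+ library or tied with the lowest, and replicate 3 the highest or tied with it, the order that held over all genes. Over all genes, 1.51% were called in DP with all peaks and 0.524% with the equal lists, and 0.0137 and 0.0684% in Pdgfra+. The called members of each list below stand beside these shares and were not tested against them.

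**Figure D4:**
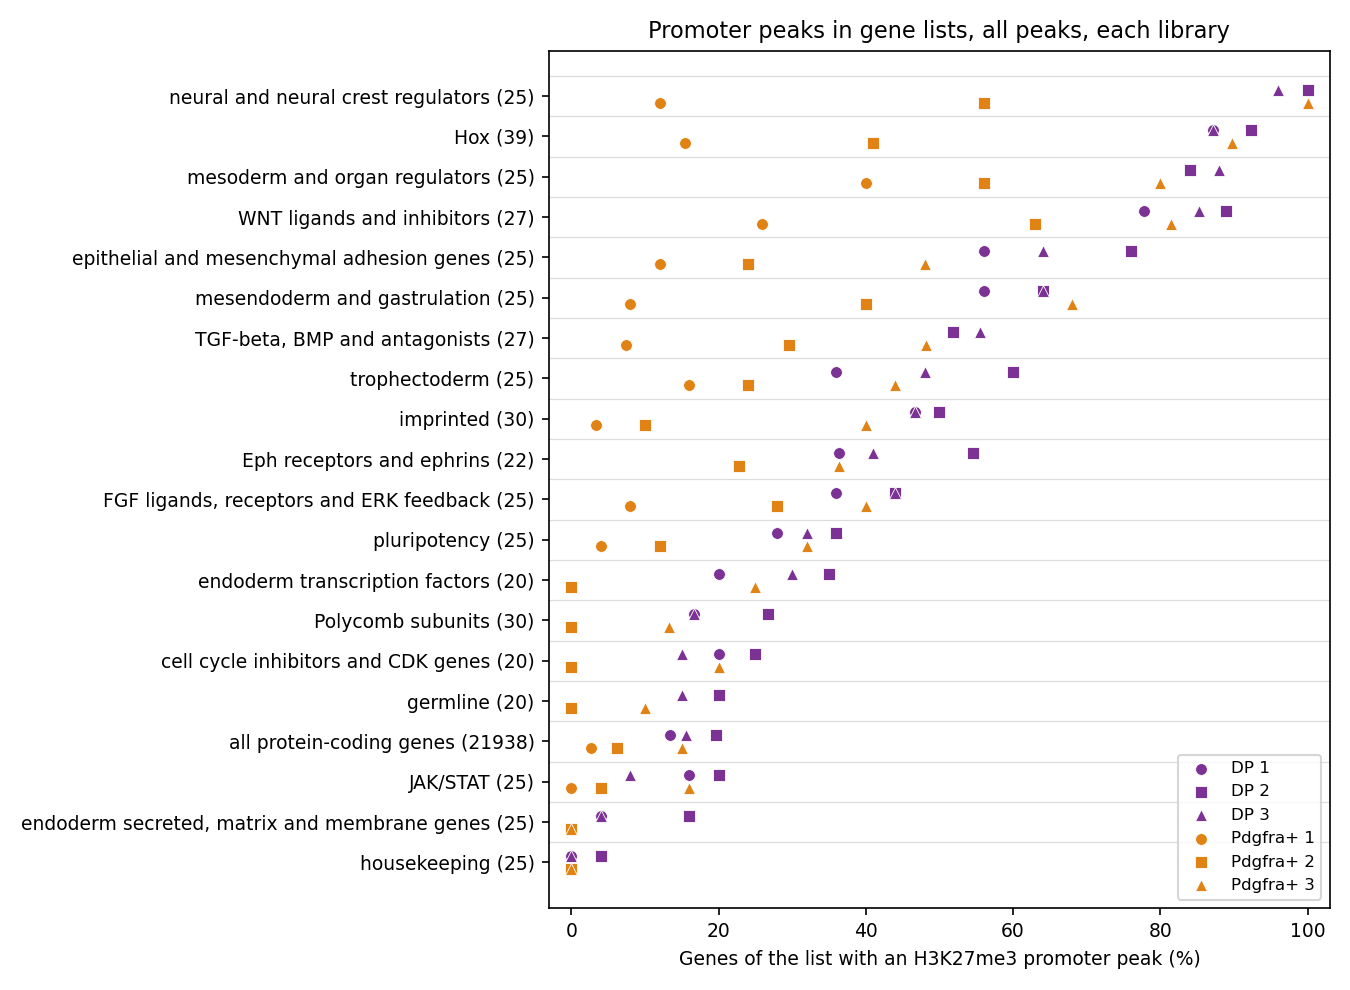
Each row is a gene list (number of genes in parentheses) and each symbol the percent of its genes with an H3K27me3 promoter peak in a DP (purple) or Pdgfra+ (orange) library, all peaks counted, with circles, squares and triangles for replicates 1, 2 and 3. Libraries with equal shares overlie each other. In the neural list the DP libraries and Pdgfra+ 3 lie at 96% or above while Pdgfra+ 1 lies at 12%.

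Regulators of the nervous system carried the mark in DP cells almost without exception. Of 25 neural and neural crest regulators, 25, 25 and 24 had a promoter peak in DP and 3, 14 and 25 in Pdgfra+. Neurog2, Emx1 and Six3 were held by all 6 lists, and none was called in either population with all peaks. With the equal lists the counts were 20, 19 and 16 against 3, 7 and 16, and Foxd3, a neural crest factor, Irx3 and Emx2 were called in DP. Foxd3 stood at percentile 81.0, 94.9 and 91.2 in DP and was absent from Pdgfra+ replicate 1, with 41.5 and 67.7 in replicates 2 and 3.

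The 39 Hox genes, which pattern the body axis, followed the same course. A promoter peak was found in 34, 36 and 34 of them in DP and in 6, 16 and 35 in Pdgfra+. No Hox gene was called with all peaks, and Hoxa2, Hoxd3 and Hoxc11 were called in DP with the equal lists. Domains over the clusters differed in extent between the Pdgfra+ libraries. Over the 105 kb of the Hoxa cluster, peaks covered 83.6, 85.3 and 74.7 kb in DP and 11.3, 38.2 and 93.8 kb in Pdgfra+. Over the 96.8 kb of Hoxd they covered 73.5, 84.4 and 59.6 kb in DP and 2.81, 12.1 and 61.6 kb in Pdgfra+. Over Hoxb the values were 78.1, 86.1 and 72.7 kb against 5.16, 24.6 and 75.3 kb, and over Hoxc 63.8, 78.3 and 51.6 kb against 1.42, 6.91 and 50.2 kb. Pdgfra+ replicate 3 covered more of Hoxa than any DP library, less of Hoxc than any, and lay within their range over Hoxb and Hoxd, while replicates 1 and 2 covered less of each cluster than any DP library.

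Mesoderm and organ regulators, 25 genes, had promoter peaks in 21, 21 and 22 genes in DP and in 10, 14 and 20 in Pdgfra+. Pax3 and Pax8 were among the 3 called in DP with all peaks. Pax3, a factor of muscle and neural crest progenitors, stood at percentile 38.4, 79.9 and 74.8 in DP, and Pax8, a thyroid and kidney factor, at 74.0, 91.8 and 63.9. With the equal lists, 3 of the list were called in DP and none in Pdgfra+. Of 25 mesendoderm and gastrulation genes, 14, 16 and 16 were held in DP and 2, 10 and 17 in Pdgfra+, and Hand2, a heart and limb factor, was called with the equal lists.

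Lefty2 went the other way within that list. This secreted NODAL inhibitor had a promoter peak in no DP list and in Pdgfra+ replicates 2 and 3, at percentile 59.9 and 39.3. In DP, H3K4me1 was listed at its promoter in 3 of 3 libraries and H3K27ac in replicate 1, and in Pdgfra+ neither mark was listed. Lefty1, its neighbour, had a promoter peak in Pdgfra+ replicate 3 alone. The BMP antagonists Nog and Fst (which binds activin) were listed in DP only, both called with all peaks. Nog stood at 68.4, 90.8 and 92.0 and Fst at 55.8, 77.7 and 64.3. Of 27 TGF-beta and BMP genes in all, 14, 14 and 15 were held in DP and 2, 8 and 13 in Pdgfra+.

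WNT ligands and inhibitors were widely marked, with 21, 24 and 23 of 27 in DP and 7, 17 and 22 in Pdgfra+. Wnt11, a ligand of non-canonical signalling, and Frzb, a secreted WNT inhibitor, were called in DP with all peaks, and Wnt4 and Wnt11 with the equal lists. Wnt11 stood at percentile 77.9, 93.1 and 93.7 in DP. H3K27ac was also listed at a promoter of this gene in 3 DP lists and in Pdgfra+ replicates 1 and 3. Of 25 FGF pathway genes, 9, 11 and 11 were held in DP and 2, 7 and 10 in Pdgfra+, none of them called with all peaks. With the equal lists the FGF counts were 4, 4 and 4 in DP and 2, 5 and 5 in Pdgfra+, with equal means. Fgfr3, an FGF receptor, was called in DP with the equal lists, at 99.4, 99.8 and 84.8, while Pdgfra+ replicate 3 listed it at 22.2. Of 25 JAK/STAT genes, which relay LIF signals, 4, 5 and 2 were held in DP and 0, 1 and 4 in Pdgfra+.

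Polycomb genes themselves were marked at a few loci. Of 30 subunit genes, 5, 8 and 5 had a promoter peak in DP and 0, 0 and 4 in Pdgfra+, and Cbx8 and Pcgf5 were among the 3 called in DP with all peaks. Phf19, an accessory subunit of Polycomb repressive complex 2, stood at percentile 98.6, 99.5 and 86.1 in DP and at 83.4 in Pdgfra+ replicate 3. H3K27ac was listed at the promoters of 22, 7 and 25 of the 30 genes in DP and of 13, 16 and 13 in Pdgfra+.

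Genes of the 3 blastocyst lineages were marked unequally. Of 20 endoderm transcription factors, 4, 7 and 6 were held in DP and 0, 0 and 5 in Pdgfra+. Gata5, a GATA factor of endoderm and heart, was called in DP with the equal lists, at percentile 80.5, 89.6 and 91.5, and stood at 66.9 in Pdgfra+ replicate 3. Of 25 secreted, matrix and membrane genes of endoderm, 1, 4 and 1 were held in DP and none in Pdgfra+, and with the equal lists none in either. Col4a1 and Col4a2, which encode basement membrane collagen, had no H3K27me3 promoter peak in any list and H3K27ac in all 6.

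Of 25 pluripotency genes, 7, 9 and 8 were held in DP and 1, 3 and 8 in Pdgfra+, and Prdm14, a regulator of naive pluripotency and germ cells, was the 1 called in DP with all peaks. It stood at percentile 24.6, 57.1 and 49.3. Nanog, Pou5f1 and Tfcp2l1 had no H3K27me3 promoter peak in any of the 6 lists. Esrrb, an orphan nuclear receptor of naive pluripotency, stood at 95.8, 91.8 and 91.4 in DP and at 95.01 in Pdgfra+ replicate 3, and was absent from replicates 1 and 2. Dppa3 was listed in DP replicate 2 alone.

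Of 25 trophectoderm genes, 9, 15 and 12 were held in DP and 4, 6 and 11 in Pdgfra+. Cdx2, the homeobox factor that specifies trophectoderm, was called in DP with the equal lists, at percentile 83.3, 92.6 and 94.5, yet Pdgfra+ replicates 2 and 3 held it at 51.6 and 74.9. Tfap2c, an AP-2 factor of the same lineage, was in all 6 lists, at 87.9, 90.6 and 90.8 in DP and at 73.8, 97.8 and 90.8 in Pdgfra+. Eomes was listed in DP replicates 2 and 3 and in Pdgfra+ replicate 3. None of Cdx2, Tfap2c, Gata2 and Eomes had an H3K27ac promoter peak in any of the 6 lists.

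Imprinted genes, 30 in number, were held in 14, 15 and 14 cases in DP and in 1, 3 and 12 in Pdgfra+. Peg10 and Sgce, which share a promoter region and a peak, were called in DP with all peaks at percentile 17.6, 60.5 and 63.7. Cdkn1c, a CDK inhibitor, stood at 99.5, 99.8 and 99.3 in DP and at 97.3 in Pdgfra+ replicate 3, and shared its peaks with Slc22a18. Of 25 adhesion genes of epithelial and mesenchymal cells, 14, 19 and 16 were held in DP and 3, 6 and 12 in Pdgfra+, and Ocln, a tight junction protein, and Ovol1 were called. With the equal lists this list gave 0, 1 and 0 genes in DP and 3, 1 and 1 in Pdgfra+. Of 22 Eph receptors and ephrins the counts were 8, 12 and 9 against 5, 5 and 8, with Efna1 and Efna2 called in DP, and 2, 2 and 3 against 5, 3 and 2 with the equal lists. Cell cycle genes (4, 5 and 3 against 0, 0 and 4 of 20) and germline genes (4, 4 and 3 against 0, 0 and 2 of 20) were held at shares near those of all genes in DP, and the germ cell helicase Ddx4 was called in DP at percentile 10.7, 21.1 and 1.84.

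The active marks at these promoters, which took no part in the calls, differed with the H3K27me3 class. Of the 455 genes in all 6 lists, 6.37, 1.10 and 7.69% had an H3K27ac promoter peak in DP replicates 1, 2 and 3 and 2.64, 2.42 and 1.98% in Pdgfra+. Of the 332 genes called in DP, 30.1, 6.33 and 43.1% had one in DP and 20.5, 25 and 13.0% in Pdgfra+. Genes in no H3K27me3 list reached 42.2, 14.5 and 43.6% in DP and 21.05, 29.6 and 24.5% in Pdgfra+. In every one of the 6 H3K27ac lists the genes called in DP with all peaks lay between the other classes. This held in the lists of Pdgfra+, which listed no H3K27me3 there, as in those of DP. The 25 genes called in both comparisons had one in 52, 12 and 52% in DP and 32, 44 and 20% in Pdgfra+. They lay above the genes in no list in DP replicates 1 and 3 and Pdgfra+ replicates 1 and 2.

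H3K4me1 was listed more often at the genes called in DP than at the genes in all 6 lists or in none, in each of the 6 H3K4me1 lists. The shares were 6.93, 32.2 and 20.2% in DP and 4.82, 2.41 and 24.4% in Pdgfra+, against 3.96, 21.1 and 14.1% and 1.32, 0.659 and 7.91% for the genes in all 6 H3K27me3 lists. With the classes of the equal lists this did not hold in DP replicate 3, where 13.0% of the genes called in DP had H3K4me1 against 18.2% of those in all 6 lists. It did not hold either for the 25 genes called in both comparisons, with 4, 40 and 16% in DP and 0, 0 and 20% in Pdgfra+. Genes called in DP also had weaker peaks. Their median percentile was 36.1, 67.1 and 53.9 in DP, against 81.3, 91.4 and 90.1 for the genes in all 6 lists. Peaks of the called class thus lay lower in the DP lists, and whether a peak below the threshold of a Pdgfra+ list was present at these genes was not tested.

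**Figure D5:**
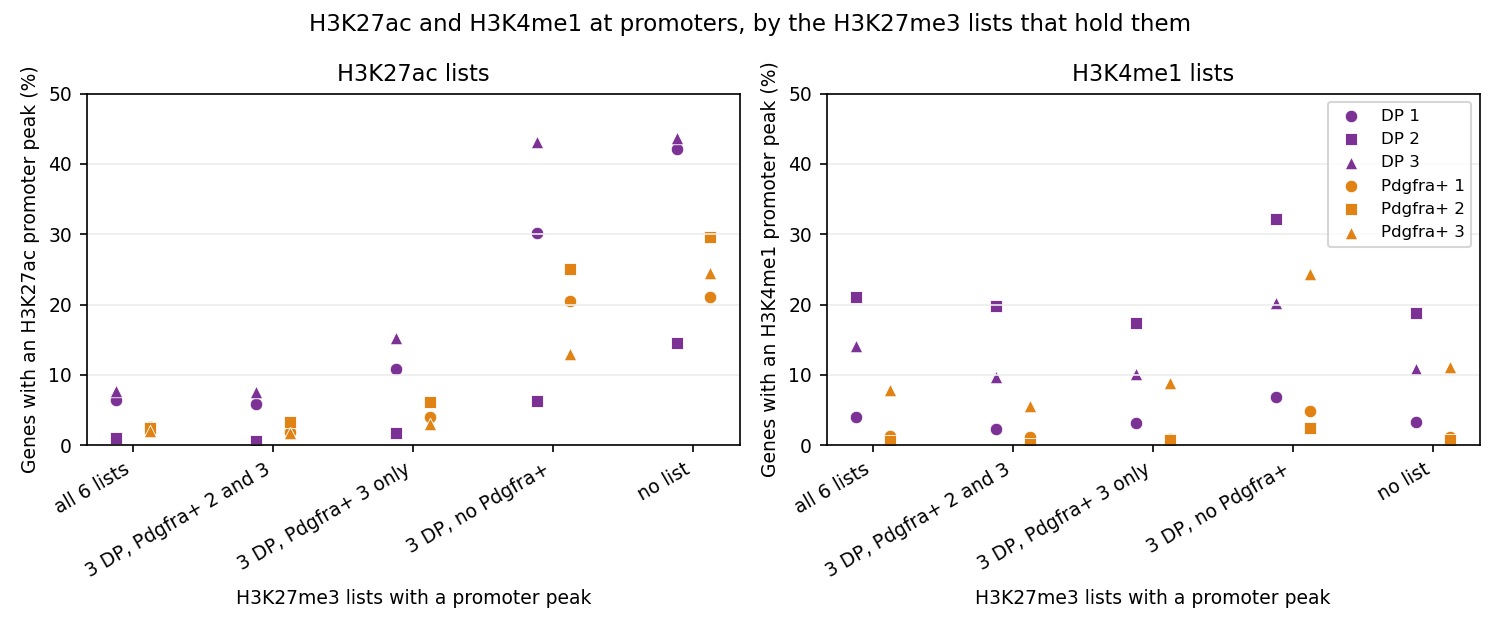
Percent of genes with a promoter peak of H3K27ac (left) or H3K4me1 (right) in each DP (purple) and Pdgfra+ (orange) library, with circles, squares and triangles for replicates 1, 2 and 3, for genes grouped by the H3K27me3 lists that hold their promoter. For H3K27ac the genes in 3 DP lists and no Pdgfra+ list (6.33 to 43.1%) lie above those in all 6 lists (1.10 to 7.69%) in every library, and for H3K4me1 they are the highest class in every library.

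Equal lists were also compared without Pdgfra+ replicate 1, which listed the fewest peaks and had the lowest peak signal. With the 2841 strongest peaks per list, promoter peaks covered 2427, 2295 and 2140 genes in DP and 1376 and 2091 in Pdgfra+ replicates 2 and 3. In this comparison, chosen after the data were seen, 267 genes (1.22% of those tested) were in 3 DP lists and neither Pdgfra+ list, and 67 (0.305%) in both Pdgfra+ lists and no DP list. Of the 267, 101 had no promoter peak in any Pdgfra+ list with all peaks either, among them Cbx8, Pcgf5, Fst, Nog, Ocln, Pax3, Pax8 and Wnt11. Of the 67, 1 was in the gene lists above, the tight junction gene Cldn4, and 19 had no promoter peak in any DP list with all peaks.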

How the data were processed

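H3K27me3 CUT&Tag peaks were analysed in 3 DP and 3 Pdgfra+ libraries, with the H3K27ac and H3K4me1 lists of the same populations beside them. The deposited lists hold total and maximum signal per peak, from SEACR, run by the authors with its stringent setting and IgG as control. The submitters' processing notes name mm10, Bowtie2, SAMtools 1.12, bedtools 2.26.0, bcl2fastq 2.19.1 and deepTools. The SEACR normalization setting and library depth are not given in the sources used here, so signal was compared only as ranks within a list. Peaks were intersected with promoters of 21938 protein-coding genes (93513 start sites) of GENCODE vM21 on GRCm38, and no peak ran past a chromosome end (0 peaks).

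Library summaries were compared by two-sided exact permutation tests over 20 splits, adjusted by the Benjamini-Hochberg method over 5 tests. The overlap step was tested on simulated peaks and against bedtools 2.31.1 (0 genes differed). Python 3.11.15, NumPy 2.4.6, pandas 2.3.3, pysam 0.24.0 and Matplotlib 3.10.9 were used. The members, gene lists and comparisons were chosen with earlier results of these data known. Named genes were, per direction, the first 10 called with all peaks and up to 15 called with the equal lists by mean percentile, listed genes that were called or differed by at least 2 libraries, 10 loci the study discusses, and the 10 strongest genes in all 6 lists. Genes outside this rule (Kit, Epas1 and others of the 25 called in both comparisons, Pitx1, Frmd4b, Gpnmb, Itga8, Neurog2, Six3, Lefty1 and Cldn4) were chosen after their values were seen. Alternatives were other numbers of peaks, a common signal threshold, other promoter definitions, looser calls, a replicate block and leaving out each library. The IgG samples were not used, and some called genes are not reported here.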

Additional observations from a re-analysis of the deposited data

How the results depend on the processing

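Counts of genes called in DP, called in Pdgfra+ and in all 6 lists are given in this order, each out of 21938 genes. They moved with the number of peaks and with the rule for a promoter peak. They were 115, 15 and 214 with the equal lists, each cut to the length of the shortest, 212, 1 and 237 with the top 50% of each list, 142, 5 and 75 when the peak maximum had to lie at the promoter, and 75, 0 and 0 above a common total signal of 52608, which left Pdgfra+ replicate 1 without peaks, so that share, width and CpG ratio had no value. A promoter of 2 kb either side gave 5 Pdgfra+ calls, and at least 2 of 3 lists against none gave 847 and 37. With 2841 peaks per list and Pdgfra+ replicate 1 left out, an alternative chosen after the data were seen, they were 267, 67 and 965. The difference in CpG ratio reversed to 0.000916 with the equal lists, to 9.56e-05 with the peak maximum and to 0.0107 without Pdgfra+ replicate 1, and the share of peaks at promoters to -0.911 points without DP replicate 1. The cause was not tested.

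Leaving out each library gave 334 to 1280 DP calls, 3 to 35 Pdgfra+ calls and 455 to 1225 genes in all lists. The rule for a call is then looser, so these counts cannot fall. The differences ranged from 1226 to 2584 genes with a promoter peak, from 1263 to 2770 with a peak over the gene, from -0.911 to 9.84 points in the share, from 1322 to 4996 bp in width and from -0.0373 to 0.0107 in CpG ratio. With the equal lists, an alternative added later, the ranges were 128 to 282, 17 to 49 and 220 to 408, with 190 DP calls without DP replicate 3 and 43 and 23 Pdgfra+ calls without Pdgfra+ replicates 1 and 2. Same-numbered libraries deviated with correlations of -0.165, -0.00589 and 0.0475, and differently numbered ones with -0.209 to 0.240. These values cannot decide whether the numbers pair the samples, which stayed unknown. The replicate block (exact sign flips, smallest possible p 0.25) left the difference of 1809 genes at exact p = 0.25 and changed no call. Unknown depth, and 3 libraries a population, limit every comparison.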
